A study of Mus musculus with 10 samples.

Results

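Genes of the contractile and supporting cells of blood vessels, 10 in all, were followed in pancreatic islets of mice heterozygous for Men1 and of wildtype mice. They comprise 6 genes of the smooth muscle contractile apparatus (Acta2, Tagln, Myh11, Cnn1, Des and Mylk) and 4 genes by which pericytes are recognised (Rgs5, Pdgfrb, Cspg4 and Notch3). Members were all probe sets whose platform annotation gives 1 of these symbols, which found 22 of the 45037 probe sets that are not controls and 10 of 18194 named genes. Islets came from female mice of 5 weeks, on a strain described as C57 on a 129 background, that were either heterozygous for Men1 (n = 5) or wildtype littermates (n = 5). No treatment is described for either genotype. About 100 islets were pooled from each mouse, and 100 ng of RNA was amplified over 2 cycles before hybridisation to 1 array per mouse. Each replicate is therefore 1 animal, and replicate numbers only name the animals.

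Mural cells are the cells that wrap the endothelial tube of a blood vessel. Smooth muscle cells encircle arterioles and contract by sliding actin and myosin filaments under the control of calcium and myosin light chain kinase. Pericytes lie along capillaries, are recruited by platelet-derived growth factor B released from endothelium, and depend on Notch signals from neighbouring cells. Islets have a dense capillary bed, and islet pericytes adjust its blood flow. In contractile cells, serum response factor and its partner myocardin act through CArG boxes, short A/T-rich sites in promoters of contractile genes, and RBPJ, the DNA-binding partner of Notch receptors, binds sites with the core TGGGAA.

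RefSeq promoter sequence on build GRCm38.p6 was at hand for 7 of the 10 members. The 250 bases before the start of Acta2 are shown because Acta2, smooth muscle alpha actin, was the member whose window held the matches described next, and those of Rgs5 because Rgs5 moved least with the contractile genes among the pericyte members. Both are written 5′ to 3′ in the direction of transcription, Acta2 from chr19:34255374-34255623 on the minus strand and Rgs5 from chr1:169655251-169655500 on the plus strand. Capitals mark matches to a CArG box with 1 G or C in its core of 6 bases or to TGGGAA on either strand.
Acta2: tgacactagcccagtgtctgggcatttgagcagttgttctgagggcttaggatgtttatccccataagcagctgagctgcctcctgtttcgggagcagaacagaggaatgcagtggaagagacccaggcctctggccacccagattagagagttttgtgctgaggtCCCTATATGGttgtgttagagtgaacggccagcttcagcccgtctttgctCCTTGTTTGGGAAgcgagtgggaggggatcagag
Rgs5: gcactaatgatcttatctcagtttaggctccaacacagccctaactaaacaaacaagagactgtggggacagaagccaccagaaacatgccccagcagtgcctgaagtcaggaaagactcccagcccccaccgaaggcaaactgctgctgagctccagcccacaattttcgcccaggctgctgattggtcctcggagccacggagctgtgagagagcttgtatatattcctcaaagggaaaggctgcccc

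In the Acta2 sequence, CCCTATATGG lies 84 to 75 bases before the start and CCTTGTTTGG lies 34 to 25 bases before it. The TGGGAA match, 27 to 22 bases before the start, overlaps the second of these by its first letters. Among 32536 promoter sequences of 250 bases, 7.23% held a CArG box with 1 G or C in the core, 1.48% held one without, and 21.6% held TGGGAA on either strand. The windows of the other 6 members, Cnn1, Des, Mylk, Rgs5, Cspg4 and Notch3, held none of these letters. These are matches of letters and not measured binding sites.

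The arrays were alike in their gross properties. Medians of the 10 arrays lay between 3.28 and 3.397 on the log2 scale of the deposited values, 18458 to 18890 probe sets per array exceeded 4, and correlations between arrays ran from 0.962 to 0.988. Men1, read from 1 kept probe set, was at 7.21, 7.18, 6.83, 6.96 and 6.25 in wildtype replicates 1 to 5. Heterozygous replicates 1 to 5 read 6.82, 6.09, 6.56, 6.44 and 6.16. The genotypes overlapped through wildtype replicate 5 alone, the other wildtype mice being above every heterozygous mouse. Nothing in the sources used here says whether the Men1 probes lie in the altered stretch of the gene. All 12 islet endocrine markers found by name were above the low-value filter, with a list mean of 13.28 ± 0.24 (SD, n = 5) in wildtype and 13.26 ± 0.25 in heterozygous islets. Acinar markers were also bright, at 16.42 ± 0.06 and 16.39 ± 0.10, so RNA of exocrine tissue was present in both groups. The filter kept 18567 probe sets with a log2 value above 4 on at least 5 of 10 arrays.

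The members fell into measured and unmeasured genes by this filter. The filter passed 8 genes, through 13 probe sets: Acta2, Tagln, Myh11 and Mylk of the contractile group, and all 4 pericyte genes. Cnn1 and Des did not pass, and 7 of the 9 member probe sets below the filter stayed between 2.21 and 3.72 and exceeded 4 on no array. The 8 genes that passed all had a lower mean in heterozygous islets, as did all 13 of their probe sets, against 43.6% of all kept probe sets with a difference below 0. None of the 8 was called: limma's adjusted p was 0.9999 for each, and 0% of all kept probe sets passed an adjusted p of 0.05 in either direction. At an unadjusted limma p under 0.05, 0 of the 8 brightest probe sets and 1 of the 13 passed, against 4.09% of all kept probe sets (760). The median difference over the 8 genes was -0.59, beside 0.01 over all 10538 kept genes. Values of the 2 genotypes overlapped in every member. In whole islets, fewer cells of a type and less RNA per cell cannot be told apart.

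**Figure D1:**
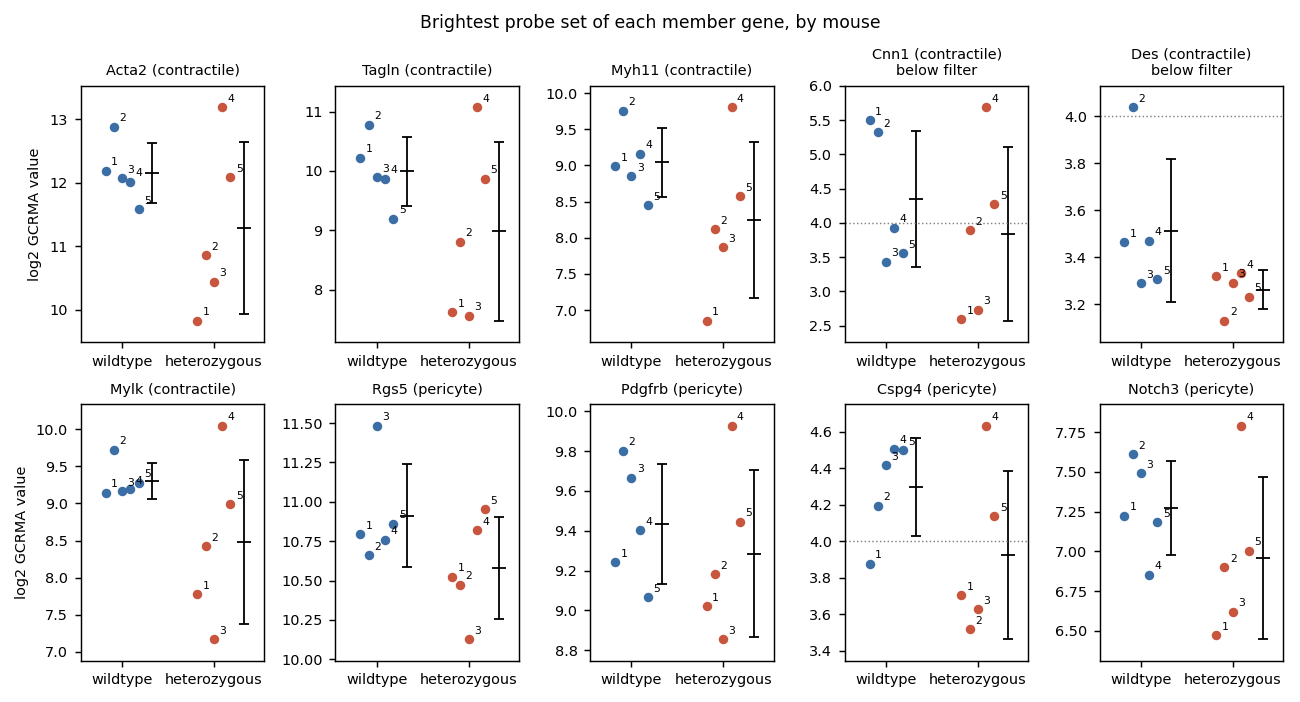
Log2 GCRMA value (vertical axis, scaled separately for each gene) of the brightest probe set of each member, with 1 point per mouse labelled by replicate number, and the mean ± SD of 5 mice beside each group; the dotted line is the filter level of 4. Heterozygous replicate 4 is the highest point of all 10 in Acta2, Tagln, Myh11, Mylk, Pdgfrb, Cspg4 and Notch3, while heterozygous replicates 1 and 3 lie near the bottom of each of these panels.

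Acta2 encodes the actin of smooth muscle thin filaments. Its brightest probe set read 12.19, 12.88, 12.07, 12.02 and 11.59 in wildtype replicates 1 to 5 and 9.83, 10.86, 10.44, 13.19 and 12.09 in heterozygous replicates 1 to 5. Heterozygous replicates 1, 2 and 3 lay below every wildtype mouse, replicate 5 lay inside the wildtype range and replicate 4 above it. The means were 12.15 ± 0.47 and 11.28 ± 1.35 (SD, n = 5 each), a difference of -0.87 (SE 0.56, 95% interval -2.09 to 0.36). On the linear scale this is 54.8% of the wildtype level, with an interval from 23.5% to 128.0%. Among all assignments of the mice to groups, a difference at least this large was not rare (exact permutation p = 0.214, two-sided). The smallest p the design allows is 0.00794. The suffix of this probe set marks probes that can match more than 1 transcript, so other actins could contribute. Actg2, the other smooth muscle actin, and the striated actins Acta1 and Actc1 were below the filter.

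Tagln encodes transgelin, an actin-binding protein of smooth muscle. Values were 10.23, 10.78, 9.90, 9.87 and 9.19 in wildtype and 7.62, 8.81, 7.56, 11.08 and 9.87 in heterozygous replicates 1 to 5. The arrangement of mice was that of Acta2: heterozygous replicates 1, 2 and 3 below all wildtype mice, and replicate 4 above them all. Its means were 9.99 ± 0.58 and 8.99 ± 1.51 (SD, n = 5 each), and the difference was -1.01 (SE 0.63; exact permutation p = 0.190).

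Myh11 encodes the smooth muscle myosin heavy chain, the most lineage-restricted member of the contractile group. Wildtype replicates 1 to 5 read 8.99, 9.76, 8.85, 9.16 and 8.45, and heterozygous replicates read 6.85, 8.12, 7.87, 9.81 and 8.58. Heterozygous replicate 1 was the lowest of all mice, and replicates 2 and 3 were also below the wildtype range. The means were 9.04 ± 0.48 and 8.24 ± 1.08 (SD, n = 5 each), with a difference of -0.80 (SE 0.46; exact permutation p = 0.183). A second Myh11 probe set was below the filter.

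Mylk encodes myosin light chain kinase, which starts contraction by phosphorylating the myosin light chain. Its brightest probe set read 9.14, 9.73, 9.16, 9.19 and 9.28 in wildtype and 7.78, 8.43, 7.17, 10.05 and 8.99 in heterozygous replicates 1 to 5. Here 4 heterozygous mice were below every wildtype mouse and replicate 4 was above them. The means of 9.30 ± 0.24 and 8.48 ± 1.11 (SD, n = 5 each) differed by -0.82 (SE 0.44, exact permutation p = 0.175). The wildtype spread was small beside the heterozygous one. A dimmer Mylk probe set differed by only -0.17 (SE 0.38) and correlated with the first at r = 0.652 over the 10 mice. The mean of both Mylk probe sets differed by -0.495.

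Cnn1, calponin, an inhibitor of myosin ATPase in smooth muscle, exceeded 4 on 4 of 10 arrays and so missed the filter. It read 5.49, 5.32, 3.43, 3.93 and 3.55 in wildtype and 2.59, 3.89, 2.73, 5.69 and 4.27 in heterozygous replicates 1 to 5. The 4 arrays above the filter level were wildtype replicates 1 and 2 and heterozygous replicates 4 and 5, and heterozygous replicates 1 and 3 were again the lowest. Its r with the mean of the 4 kept contractile genes was 0.870 over 10 mice, given as a description.

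Des, desmin, the intermediate filament of muscle and of many pericytes, exceeded 4 on wildtype replicate 2 alone, at 4.04. The other 9 arrays read 3.13 to 3.47, a level at which no direction can be read. Des is thus a member for which these arrays give no usable level.

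By their brightest probe sets, the pericyte members varied less between mice than the kept contractile members did. This contrast was of the members and not of every gene of either class. Rgs5, a regulator of G-protein signalling used as a pericyte marker, read 10.79, 10.66, 11.48, 10.76 and 10.86 in wildtype and 10.52, 10.47, 10.13, 10.82 and 10.95 in heterozygous replicates 1 to 5. In this gene 3 heterozygous mice lay below every wildtype mouse, while wildtype replicate 3 stood above all the others. The means were 10.91 ± 0.33 and 10.58 ± 0.32 (SD, n = 5 each), a difference of -0.33 (SE 0.19; exact permutation p = 0.159). The other kept Rgs5 probe sets differed by -0.49, -0.26 and -0.26. The first of these (SE 0.22) had an unadjusted limma p of 0.045, the sole member probe set under 0.05, and an adjusted p of 0.9999. The 4 Rgs5 probe sets correlated with one another at r from 0.468 to 0.875.

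Pdgfrb is the receptor for platelet-derived growth factor B on mural cells. Wildtype replicates 1 to 5 read 9.24, 9.80, 9.67, 9.40 and 9.07, and heterozygous replicates read 9.02, 9.18, 8.85, 9.93 and 9.44. Heterozygous replicates 1 and 3 were below the wildtype range and replicate 4 was above it. The means, 9.44 ± 0.30 and 9.29 ± 0.42 (SD, n = 5 each), differed by -0.15 (SE 0.21; exact permutation p = 0.524). A dimmer probe set differed by -0.16 (SE 0.14) and followed the first at r = 0.836.

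Notch3 is the Notch receptor of vascular smooth muscle and pericytes. It read 7.22, 7.61, 7.49, 6.85 and 7.18 in wildtype and 6.47, 6.90, 6.62, 7.79 and 7.005 in heterozygous replicates 1 to 5. Heterozygous replicates 1 and 3 were below every wildtype mouse. The means of 7.27 ± 0.30 and 6.96 ± 0.51 (SD, n = 5 each) differed by -0.32 (SE 0.24; exact permutation p = 0.278).

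Cspg4, the surface proteoglycan also called NG2, lay close to the filter level and exceeded 4 on 6 of 10 arrays. It read 3.88, 4.19, 4.42, 4.51 and 4.50 in wildtype and 3.70, 3.52, 3.63, 4.63 and 4.14 in heterozygous replicates 1 to 5. The means were 4.30 ± 0.27 and 3.92 ± 0.46 (SD, n = 5 each), a difference of -0.38 (SE 0.22; exact permutation p = 0.143). It spanned 1.12 log2 units between the lowest and the highest mouse.

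**Figure D2:**
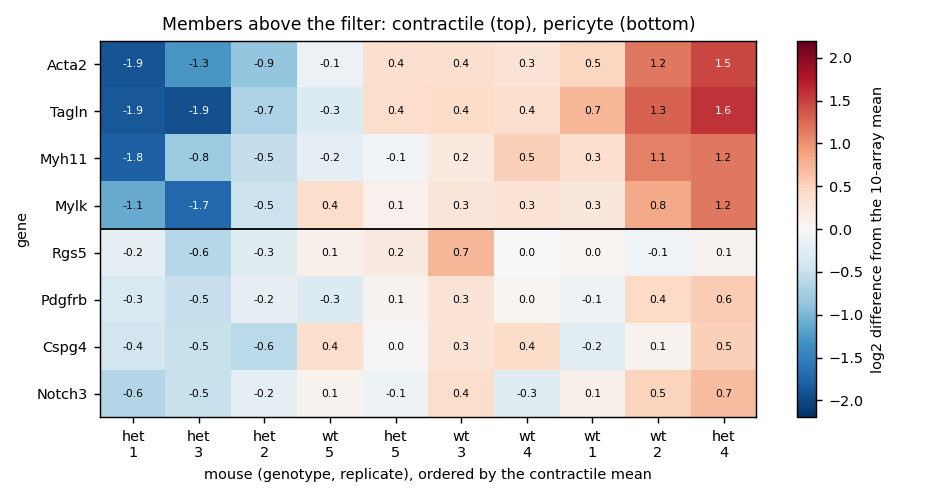
Log2 difference of each member above the filter from its own mean over 10 arrays, with mice (columns) ordered by the mean of the 4 contractile genes and genes in rows; wt is wildtype and het is heterozygous. The 3 leftmost columns are heterozygous replicates 1, 3 and 2 and are blue in nearly every gene, and the rightmost is heterozygous replicate 4. The pericyte rows have paler colours and follow this order only in part, Rgs5 being highest in wildtype replicate 3.

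The same mice were low and high across the members. Heterozygous replicates 1 and 3 were among the 3 lowest of 10 mice in 8 of 8 genes, and heterozygous replicate 2 in 6. Heterozygous replicate 4 was the highest mouse in 7 genes, the exception being Rgs5, and wildtype replicate 2 was among the 2 highest in 6. Per mouse, the mean of the 4 contractile genes was 10.12 ± 0.42 in wildtype (range 9.63 to 10.79) and 9.25 ± 1.24 in heterozygous islets (range 8.02 to 11.03). The mean of the 4 pericyte genes was 7.98 ± 0.19 (range 7.78 to 8.26) and 7.69 ± 0.40 (range 7.31 to 8.29). These means differed by -0.87 and -0.29, and by -1.32 and -0.45 without heterozygous replicate 4.

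Contractile genes spanned 2.88 to 3.52 log2 units between the lowest and the highest mouse, which is 7.34-fold to 11.4-fold. Pericyte genes spanned 1.07 to 1.36 units, or 2.10-fold to 2.56-fold, where the median kept probe set spanned 0.803 and 0.689% spanned more than 3. In each of the 4 contractile genes both the lowest and the highest mouse were heterozygous. The SD among heterozygous mice was 2.25 to 4.57 times that among wildtype mice for the 4 contractile genes and 0.987 to 1.73 times for the pericyte genes. All these values are of the brightest probe set of each gene. In the dimmer Mylk probe set the SD ratio was 0.82, and the highest mouse was wildtype replicate 2 at 7.12. Dimmer Rgs5 probe sets reached a span of 1.93 units and an SD ratio of 1.85. The median ratio of all kept probe sets was 1.03, and 12.5% exceeded 2.25. Having 3 or more heterozygous mice below every wildtype mouse was seen in Acta2, Tagln, Myh11, Mylk, Rgs5 and Cspg4, and in 5.98% of all kept probe sets.

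**Figure D3:**
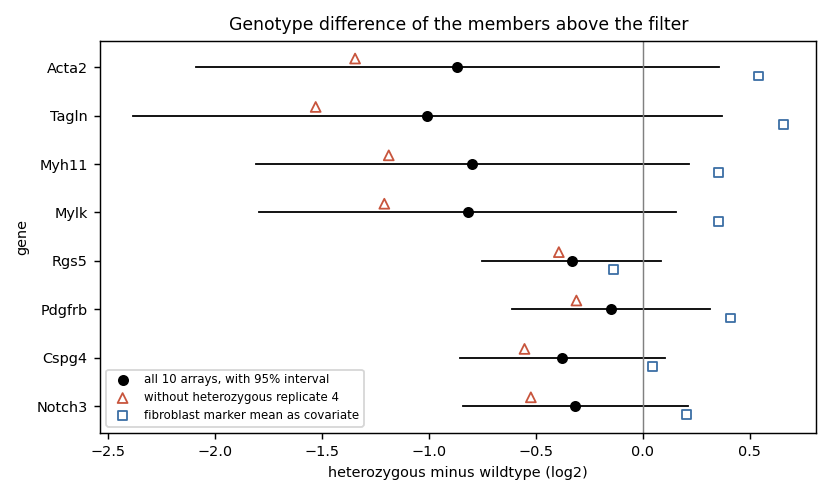
Heterozygous minus wildtype difference (log2, horizontal axis) of each member above the filter: black points with 95% limma intervals use all 10 arrays, open triangles leave out heterozygous replicate 4, and open squares add the mean of fibroblast markers as a covariate. Every black interval crosses 0, every triangle lies to the left of its point, and 7 of the 8 squares lie to the right of 0.

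Leaving out heterozygous replicate 4 moved the Acta2 difference to -1.35, with an unadjusted limma p of 0.00913 and an adjusted p of 0.637. Mylk moved to -1.21 (adjusted p = 0.485), Tagln to -1.53 (adjusted p = 0.649) and Myh11 to -1.19 by the same limma fit. Notch3 moved to -0.52, Cspg4 to -0.55, Rgs5 to -0.39 and Pdgfrb to -0.31. No probe set on the array passed an adjusted p of 0.05 without this mouse either. Leaving out some other mice brought differences closer to 0, and leaving out others moved them further from it. Without heterozygous replicate 5 the contractile mean difference was -1.03 and Rgs5 differed by -0.43. Without wildtype replicate 5 the contractile mean difference was -0.996. Without heterozygous replicate 1 the contractile mean difference was -0.57, and Acta2 differed by -0.50, Tagln by -0.66, Myh11 by -0.45, Notch3 by -0.19 and Pdgfrb by -0.084. Without heterozygous replicate 3 Mylk differed by -0.49, Tagln by -0.65, Rgs5 by -0.22 and Pdgfrb by -0.043. Wildtype mice mattered for the pericyte genes: Rgs5 differed by -0.19 without wildtype replicate 3, and Pdgfrb by -0.059 without replicate 2, -0.093 without replicate 3 and -0.24 without replicate 5.

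Whether contractile and pericyte genes moved together was examined over the 28 pairs of the 8 kept members, with permutation p-values adjusted over those pairs. Within the contractile group, all 6 pairs passed an adjusted p of 0.05, with r from 0.867 to 0.982 and a median of 0.947. Acta2 and Tagln had r = 0.982 (Spearman's rho = 0.976; permutation adjusted p = 0.00014) over the 10 mice. Between the groups, 12 of 16 pairs passed with Pearson's r and 10 with rho, and the median r was 0.810. Within the pericyte group, 2 of 6 pairs passed with r and 1 with rho, and the median r was 0.658. Over all 55519453 pairs of kept genes the median r was 0.0464 and 1.03% exceeded 0.8, where 53.6% of the member pairs did. Pairs on the same arrays share RNA amplification and normalisation, and genes are not independent replicates.

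**Figure D4:**
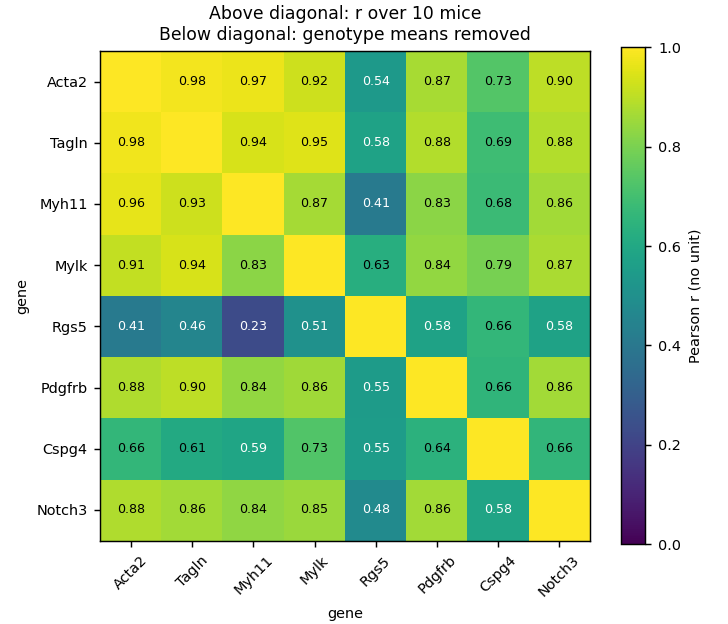
Pearson r between each pair of members above the filter over 10 mice (above the diagonal), and after removing each genotype's mean (below the diagonal); colour runs from 0 to 1. The block of Acta2, Tagln, Myh11 and Mylk and the rows of Pdgfrb and Notch3 are bright on both sides of the diagonal, while the Rgs5 row is the darkest.

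Pdgfrb, Notch3 and Cspg4 were the pericyte genes that passed with contractile genes by r. Acta2 and Notch3 had r = 0.899 (rho = 0.891; permutation adjusted p = 0.00274), and 0.788 without heterozygous replicates 1 and 3, the 2 mice farthest from the median of Acta2. Acta2 and Pdgfrb had r = 0.871 (rho = 0.891; permutation adjusted p = 0.00324), and 0.842 without the same mice. Pdgfrb and Notch3 had r = 0.861 with each other (permutation adjusted p = 0.00462). Cspg4 passed with all 4 contractile genes by r, from 0.683 to 0.793, but by rho with 2 of them, Myh11 and Mylk, its adjusted p being 0.117 with Acta2 and 0.097 with Tagln.

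Rgs5 did not pass with any contractile gene: r ran from 0.408 with Myh11 to 0.629 with Mylk, and from 0.120 to 0.401 without the 2 mice farthest from the median. With the genotype means removed, median r was 0.934 within the contractile group, 0.782 between the groups and 0.568 within the pericyte group. Among heterozygous mice, replicate 4 had the highest mean in both classes, replicate 1 the lowest contractile mean and replicate 3 the lowest pericyte mean. Apart from replicates 1 and 3 trading places, the order of heterozygous mice was shared by both classes. Among wildtype mice it was not: replicate 1 had the second-highest contractile mean (10.14) with the lowest pericyte mean (7.78), and replicate 3 had the highest pericyte mean (8.26) with a contractile mean below those of replicates 1, 2 and 4. With 5 mice per genotype, no correlation was computed within a single genotype.

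**Figure D5:**
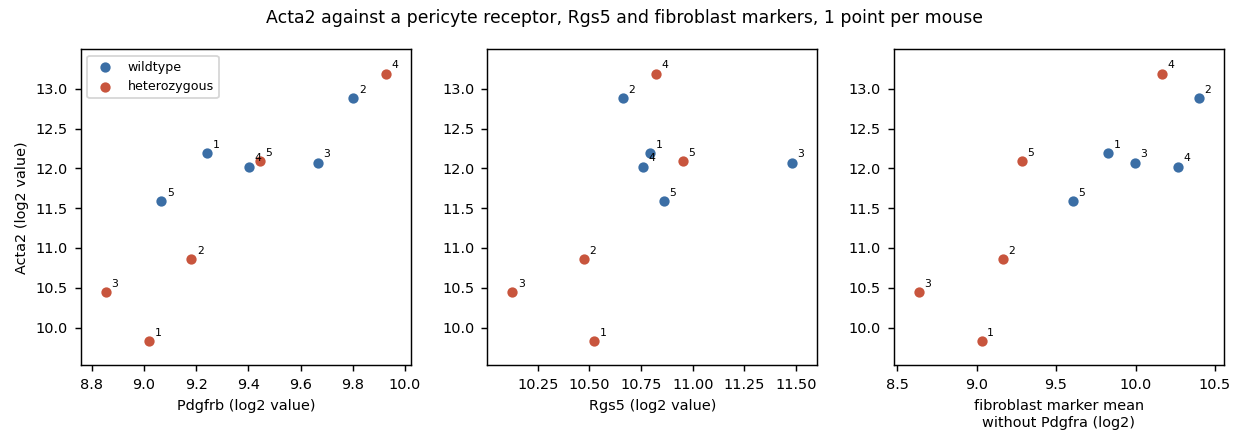
Acta2 (log2, vertical axis) against Pdgfrb, Rgs5 and the mean of 10 fibroblast markers without Pdgfra (log2, horizontal axes), with 1 point per mouse labelled by replicate number and coloured by genotype. Points rise from heterozygous replicates 1 and 3 to heterozygous replicate 4 in the Pdgfrb panel (r = 0.871), scatter more in the Rgs5 panel, and rise again with the fibroblast markers.

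The genes whose values were most like the members' over the 10 mice were named as a description, with no test. For the contractile mean they were Igfbp5 (r = 0.971), Lepr (0.971), Cald1 (0.970), Trip6 (0.967) and Myl9 (0.965). Cald1 is caldesmon and Myl9 the regulatory myosin light chain, both of the contractile apparatus, Igfbp5 binds insulin-like growth factors and Lepr is the leptin receptor. For the pericyte mean they were Ctla2a (0.977), Anxa1 (0.9753), Map3k20 (0.969), Ptprb (0.958) and Vim (0.956). Ptprb is a tyrosine phosphatase of endothelium and Vim the intermediate filament of mesenchymal cells.

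Among other genes of the contractile apparatus, differences ran from near 0 to -0.72, the latter in Myl9 (SE 0.55). Of 24 measured, 21 had a lower and 3 a higher mean in heterozygous islets, none was called, and none had an unadjusted limma p under 0.05. The list's median difference was -0.25. Tpm1, a tropomyosin, differed by -0.46 (SE 0.23), and Aoc3, vascular adhesion protein 1 of smooth muscle, by -0.64 (SE 0.44). Cald1 differed by -0.30 (SE 0.21) and Myl6, a myosin light chain, by -0.39 (SE 0.29). Actg2, Smtn, Lmod1, Synm, Kcnmb1, Prkg1, Susd5 and Nexn were below the filter.

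Transcriptional regulators of smooth muscle differed less still. Of 9 measured, 6 had a lower and 3 a higher mean, with a median difference of -0.17 and no call. Srf, serum response factor itself, differed by -0.23 (SE 0.22), and Mrtfb, its myocardin-related cofactor, by 0.13 (SE 0.11). Myocd, myocardin, was below the filter, as were Foxf1, Tbx18, Foxc1 and Foxc2. Nr2f2 and Tcf21, which mark venous and mesenchymal cells, differed by -0.31 (SE 0.25) and -0.22 (SE 0.20).

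Other pericyte genes were lower on average in 19 of 19 measured, with a median difference of -0.24, none called and 2 with an unadjusted limma p under 0.05. Some of these differences were near 0, such as -0.031 in Abcc9 and -0.0046 in Vtn, and heterozygous values of Cygb and Adcyap1r1 were nearly constant (SD 0.0047 and 0.014). The count was 18 without heterozygous replicate 4 and 17 without heterozygous replicates 2 and 5. Gjc1, a gap junction protein, read 6.83, 7.38, 7.15, 7.21 and 7.57 in wildtype and 6.35, 6.79, 6.65, 7.16 and 6.63 in heterozygous replicates 1 to 5. Its groups overlapped by heterozygous replicate 4 alone above the lowest wildtype mouse, and it differed by -0.51 (SE 0.17; exact permutation p = 0.0238, limma adjusted p = 0.9999). Gpx8, a peroxidase of the endoplasmic reticulum, differed by -0.52 (SE 0.18), Lhfp by -0.47 (SE 0.23), and Gja4, a gap junction protein of vessels, by -0.67 (SE 0.35).

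The pathway of platelet-derived growth factor, which recruits pericytes, had 12 measured genes, of which 9 had a lower and 3 a higher mean and none was called. Pdgfra, the alpha receptor carried by fibroblasts, differed by -0.78 (SE 0.24; exact permutation p = 0.0317, limma adjusted p = 0.9999). Lrp1, a co-receptor that binds Pdgfrb, differed by -0.31 (SE 0.14), the adaptor Nck1 by -0.32 (SE 0.15) and the docking protein Gab1 by -0.37 (SE 0.22). The list's median difference was -0.12.

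Notch pathway genes of mural cells numbered 16, of which 13 had a lower and 3 a higher mean, with a median difference of -0.17 and no call. Hes1, a target repressor of Notch, differed by -0.57 (SE 0.23), and Nrarp, a Notch-induced feedback protein, by -0.52 (SE 0.22). The coactivator Maml1 differed by -0.24 (SE 0.14). The target Hey1 differed by -0.17 (SE 0.09), but its heterozygous values were nearly constant at 6.14 (SD 0.0037), beside 6.13 in wildtype replicate 4, so no graded difference can be read from it. The count of 13 was 16 without heterozygous replicate 4 and 10 without heterozygous replicates 2 and 5.

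Signals that recruit or mature vessel walls included 16 measured genes, 13 with a lower and 3 with a higher mean, and none was called. The ligand Tgfb3 differed by -0.99 (SE 0.53), and Tgfbr2, the receptor that binds such ligands, by -0.51 (SE 0.26). Acvrl1, a type I receptor of endothelium, and the chemokine Cxcl12 each differed by -0.38 (SE 0.22 and 0.23). The list's median difference was -0.21.

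Of the other cell types, fibroblast, stellate, endothelial and myeloid markers had members that passed with them. All 11 measured fibroblast markers had a lower mean in heterozygous islets, with a median difference of -0.76 and 9 with an unadjusted limma p under 0.05, but none called. Their list mean was 9.72 ± 0.32 in wildtype (range 9.33 to 10.08) and 8.95 ± 0.55 in heterozygous islets (range 8.35 to 9.85). Col3a1, a fibrillar collagen, differed by -1.08 (SE 0.31), and Dcn, the proteoglycan decorin, by -0.64 (SE 0.19). The defining markers Pi16, Mfap5 and Clec3b were below the filter.

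Acta2 followed the fibroblast mean at r = 0.839 (rho = 0.770; permutation adjusted p = 0.0268 over 88 relations), and at 0.723 without heterozygous replicates 1 and 3. Over the 8 members, r with the fibroblast mean ran from 0.565 to 0.891 and 5 passed, or 4 by rho. Without the 2 mice farthest from the median it ran from 0.150 to 0.869. With the mean of the other 10 fibroblast markers (Pdgfra left out) as a covariate, 1 of the 8 members still had a lower value in heterozygous islets, namely Rgs5 at -0.14. The other 7 then had differences above 0, among them Acta2 at 0.543, Tagln at 0.659 and Pdgfrb at 0.409, with limma adjusted p near 1 for each. The unadjusted limma p of Pdgfrb in that fit was 0.0196, with a higher value in heterozygous islets. Other contractile genes then had 6 of 24 below 0 and other pericyte genes 9 of 19. Since fibroblast markers themselves differed between the groups, genotype and fibroblast content cannot be told apart in this fit.

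Endothelial markers had a lower mean in 12 of 13 measured, with a median of -0.33 and list means of 7.64 ± 0.26 (range 7.32 to 7.998) and 7.33 ± 0.22 (range 7.02 to 7.59). Esam, an endothelial adhesion molecule, differed by -0.53 (SE 0.17) and Egfl7 by -0.61 (SE 0.24). Some markers did not differ, with -0.0035 (SE 0.16) in Flt1, counted as lower, and 0.00012 (SE 0.11) in Kdr. Pecam1 was below the filter. Members' r with the endothelial mean ran from 0.634 to 0.826, and 2 of 8 passed, or 1 by rho. Without wildtype replicate 3 and heterozygous replicate 3 the r of Rgs5, which had passed, went from 0.825 to 0.315. That of Pdgfrb, the other that had passed, was 0.826 with and without these mice. Over the 8 members r then ran from 0.315 to 0.832.

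Myeloid markers had a lower mean in 5 of 6, with list means of 7.26 ± 0.16 (range 7.09 to 7.51) and 6.92 ± 0.43 (range 6.43 to 7.31), and 7 of 8 members passed with them (r from 0.634 to 0.879), or 4 by rho. For the contractile genes r fell without heterozygous replicates 1 and 3, and no p was computed without them. It went from 0.849 to 0.506 in Acta2, 0.879 to 0.508 in Tagln, 0.804 to 0.403 in Myh11 and 0.856 to 0.339 in Mylk. By rho over all mice Acta2 and Tagln passed, and Myh11 and Mylk did not. Cd14 differed by -0.64 (SE 0.20) and Adgre1 by -0.57 (SE 0.21), while Cd68, Itgam and Fcgr3 were below the filter. Stellate cell markers had a lower mean in 3 of 4 measured, with list means of 7.40 ± 0.18 (range 7.21 to 7.61) and 7.08 ± 0.30 (range 6.86 to 7.60), and 5 of 8 members passed with them, or 2 by rho. Spon1 differed by -0.53 (SE 0.28) and Vim by -0.61 (SE 0.34). Gfap, near the filter level, differed by 0.014 (SE 0.26) and read 4.73 and 4.94 in heterozygous replicates 1 and 3. Heterozygous values of Cygb were nearly constant (SD 0.0047), and Des, Ngfr and Lrat were below the filter.

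The part of fibroblast, endothelial, myeloid and stellate content in the members' values was not tested. All 15 skeletal and cardiac muscle markers were below the filter, and 13 of them exceeded 4 on no array. Ttn exceeded 4 on 2 arrays, reaching 6.15, and Myh6 on 1 array for each of its probe sets, reaching 4.47. Lymphocyte markers had a higher mean in heterozygous islets in 4 of 4 measured (median difference 0.72, none called). Their list means were 4.92 in wildtype and 5.58 in heterozygous islets. Heterozygous replicates 2 and 5 raised the latter, at 7.33 and 6.87, while replicates 1, 3 and 4 read 4.58, 4.63 and 4.499. Wildtype replicates 1 to 4 read 4.596 to 4.81, and wildtype replicate 5 read 5.87. A lower mean was found for 3 of 4 mesothelial, 4 of 5 duct, 6 of 6 acinar and 1 of 3 Schwann cell markers measured, with none called. No member passed with acinar, duct, Schwann, mesothelial, lymphocyte or islet endocrine markers. Members' r with the islet endocrine mean ran from -0.220 to 0.722, the latter in Rgs5 (permutation adjusted p = 0.0569). That of Rgs5 was 0.426 without wildtype replicate 3 and heterozygous replicate 5. With the acinar mean r ran from -0.520, in Rgs5, to -0.058. Without wildtype replicate 4 and heterozygous replicate 5 it ran from -0.748, again in Rgs5, to -0.306. By rho over all mice the acinar relation of Rgs5 was -0.770 (permutation adjusted p = 0.064). The difference between 3′ and 5′ control probe sets, a measure of RNA integrity and amplification length, lay between 3.21 and 3.59 and was highest in heterozygous replicates 4 and 3. Its r with the members ran from -0.354 to 0.220, and none passed.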

How the data were processed

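Total RNA of islets from 10 mice was measured on 1 array per mouse. Each array has 1 deposited log2 value per probe set, and GCRMA is the tool named for it, per the submitters' processing notes. Neither a version nor a scanner is named there. GCRMA corrects background by probe sequence and normalises arrays together, which draws dim probe sets towards a common value, and amplification over 2 cycles shortens transcripts.

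Deposited values ran from 0.654 to 17.58 and were used without further normalisation. Control probe sets (64) were left out, and probe sets were tested where log2 values exceeded 4 on at least 5 of 10 arrays. The platform annotation gave 1 symbol for 34958 probe sets, several for 932 and none for 9160 others that are not controls. A gene was represented by its kept probe set with the highest mean. Probe sets with several symbols were given no name.

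Genotypes were compared with limma 3.58.1 in R 4.3.3 (lmFit and eBayes), with Benjamini-Hochberg adjustment over the 18567 kept probe sets and a threshold of 0.05. Values of probe sets below the filter come from a fit without the filter. Exact two-sided permutation tests used all 252 assignments of mice. Correlations used Pearson's r and Spearman's rho over 10 mice with 100000 permutations, adjusted over 28 pairs of members or over 88 relations of members with other measures, in Python 3.11.15. Each r was also computed without the 2 mice farthest from the median. The limma script was checked on simulated data. Precision is limited by the 5 arrays per group.

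Members and gene lists were chosen with earlier results of these data known, so members' counts are descriptions. From each list the up to 4 genes with the smallest limma p were named (2 from marker lists that moved with the members), and the 5 genes most like each group of members. Alternatives were the filter, normalisation, variance prior, array weights, replicate block, covariates and leaving out each mouse.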

Additional observations from a re-analysis of the deposited data

Results flagged for a closer look

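In 3 of 26 groups of 5 mice, 1 mouse stood apart from the other 4 by Dixon's criterion, which chance meets in about 1 in 20 groups. Mylk in wildtype replicate 2 read 9.73, against 9.14 to 9.28 in the other wildtype mice. Rgs5 in wildtype replicate 3 read 11.48, against 10.66 to 10.86. The dimmer Pdgfrb probe set in heterozygous replicate 4 read 5.02, against 4.53 to 4.60 in the other heterozygous mice. Cnn1, below the low-value filter and so outside the genotype comparison, read 5.69 in heterozygous replicate 4, above the wildtype range of 3.43 to 5.49.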

How the results depend on the processing

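No probe set passed an adjusted p of 0.05 under any of the settings tried, including all that left out 1 mouse, while 508 to 1097 had an unadjusted limma p under 0.05. The 8 kept members stayed lower under every setting except the fibroblast covariate, where 1 did; with the filter at 6, 7 of 7 were lower. Leaving out each mouse gave contractile mean differences from -1.32 (without heterozygous replicate 4) to -0.57, pericyte mean differences from -0.45 (without the same mouse) to -0.20, and a median r between contractile and pericyte genes from 0.756 to 0.846. With the fibroblast marker mean as a covariate, the contractile and pericyte mean differences were 0.477 and 0.130, the median r was 0.402, and the differences of Acta2, Tagln, Myh11, Mylk, Pdgfrb, Cspg4 and Notch3 were 0.543, 0.659, 0.354, 0.353, 0.409, 0.0445 and 0.203. The cause was not tested. The median r, 0.810 in the report, was 0.699 without the filter, which adds Cnn1 and Des, and 0.849 with the filter at 6, which drops Cspg4. Replicate numbers did not pair the mice: correlations of same-numbered arrays' deviations ran from -0.284 to 0.108, and 1 wildtype array matched its own number best. With the replicate number as a block, no probe set was called, 8 members were lower and the median r was 0.839. Alternatives chosen after seeing the data were the list counts without heterozygous replicate 4, without heterozygous replicates 2 and 5, and with the fibroblast covariate. Under that covariate, 3 of 9 transcription, 6 of 12 PDGF, 7 of 16 Notch and 3 of 16 vessel wall genes were below 0.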
